A study of Rattus norvegicus with 31 samples.

Results

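The cytochrome P450 genes considered here are those that lie outside the families best known from drug induction and bile acid synthesis. They were chosen by name, as all rows of the count table whose symbol begins with Cyp and a digit, leaving out symbols that begin with Cyp1a, Cyp1b, Cyp2b, Cyp2c, Cyp3a, Cyp4a, Cyp7, Cyp8b, Cyp27a1 or Cyp51. Of 76 P450 rows, 29 were left out in this way and 47 remained. A summed count of at least 2 over all libraries was reached by 42 of the 47, and these 42 are the members, among 19904 genes that passed the same limit and 26312 genes in the table. The 5 rows below it were Cyp24a1 with 1 count, and Cyp2g1, Cyp2ac1 and both rows of Cyp11b3 with no count.

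P450 enzymes are haem proteins that insert an oxygen atom into their substrates, and in the liver most of them sit in the endoplasmic reticulum and draw electrons from P450 oxidoreductase. Besides drugs and pollutants, they oxidise the body's own signalling molecules, among them retinoic acid, vitamin D, fatty acids, eicosanoids and steroids. Some are kept at a stable level in hepatocytes, whereas others are switched on by nuclear receptors such as CAR, PXR or the retinoic acid receptors.

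RNA-Seq was performed on livers of 31 young adult female Wistar rats (Crl:WI) after 28 days of daily gavage. The 8 control rats received the carboxymethyl-cellulose vehicle, which all groups shared. The neonicotinoid insecticide thiacloprid (THI) was given at 108 mg/kg bw/day to 4 rats. The azole fungicide imazalil (IMZ) was given at 93 mg/kg bw/day to 4 rats. The neonicotinoid clothianidin (CTD) was given at 288 mg/kg bw/day, and livers of 3 rats of this group were sequenced. The paper marks this CTD group for a rat or more killed in moribund condition. The CTD rats described here are thus those that remained, and the part of this in the results was not tested. Each mixture had 4 rats and held 54 mg/kg bw/day THI with 46 mg/kg bw/day IMZ, 54 mg/kg bw/day THI with 134 mg/kg bw/day CTD, or 46 mg/kg bw/day IMZ with 135 mg/kg bw/day CTD. All comparisons with control used the same 8 control rats, so they are not independent of each other.

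Libraries held 31.8 M to 101 M counts, and the members took 0.826% to 1.24% of them. Hepatocyte markers were high in all groups, with a summed level of 173473 to 263466 CPM (TMM-normalised counts, scaled to library size) over 9 genes. Of these 9, 2 were down-regulated after CTD, 2 after THI + CTD, and 1 was up-regulated after THI + IMZ. The summed level of 4 red blood cell markers was 63.2 to 84.7 CPM in the CTD rats and 15.5 to 39.4 CPM in the controls, mostly from the globin gene Hba1, and it reached 104 CPM in a THI + CTD rat and 64.6 CPM in a THI rat. After CTD 2 of these 4 markers were up-regulated and 1 was down-regulated. The sum of 8 Kupffer cell and macrophage markers was 334 to 475 CPM in CTD and 357 to 435 CPM in THI + CTD, against 427 to 684 CPM in the controls, and 4 of the 8 were down-regulated in each of these treatments. The sum of 6 pancreas genes was 194 to 468 CPM in the controls and 17.4 to 215 CPM in the treated rats, mostly from Cpa1, with Cela1 at 1.48 to 9.38 CPM and Prss1, Pnlip, Amy2a3 and Ins2 at most at 0.135 CPM. The part of these markers in the results was not tested. In bulk tissue, fewer cells of a type and less RNA per cell cannot be told apart.

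The members spanned a wide range of counts. A mean of at least 100 CPM was reached by 11 members, at least 1 CPM by 25, and under 1 CPM by 17. At least 10 counts in all 31 libraries were found for 26 members. Cyp2w1, Cyp2ab1, Cyp4f40, Cyp4f18, Cyp11b2 and Cyp19a1 had 0 to 10 counts in all libraries and are only named here. Counts were not divided by transcript length, so levels are compared between rats and not between genes.

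The 6 treatments were each set against the controls with edgeR's quasi-likelihood test over all 19904 genes, and a gene was called at a Benjamini-Hochberg adjusted p under 0.05. Of 252 pairs of member and treatment, 8 were called, and they belonged to 6 members. After THI no member was called (background over all genes 0.543%), and DESeq2's Wald test called 1. An unadjusted p under 0.05 was found for 11 members (26.2%), against 8.68% of all genes. After IMZ 1 member was called, Cyp2a3, which was up-regulated (0.251% of all genes were called and 0.191% up-regulated). After CTD 4 of 42 members were called (9.52%), with Cyp26a1 and Cyp2j4 up-regulated and Cyp39a1 and Cyp4f4 down-regulated, and this share lay below the 12.7% of all genes (6.62% up-regulated and 6.03% down-regulated). After THI + IMZ no member was called (background 1.18%), with 3 at an unadjusted p under 0.05 (7.14%, against 11.1% of all genes) and no call by DESeq2. After THI + CTD Cyp26a1, Cyp2j4 and Cyp2j10 were up-regulated, which is 7.14% of the members against 4.39% of all genes (2.67% up-regulated). After IMZ + CTD no member was called (background 1.46%), again with 3 at an unadjusted p under 0.05 (7.14%, against 12.8% of all genes) and no call by DESeq2. Of the 25 members with at least 1 CPM, 17 kept a log2 fold change within 0.5 of control in all 6 treatments, and 23 within 1. The remaining 36 members were called in no treatment, among them Cyp2e1 and Cyp2d2.

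**Figure D1:**
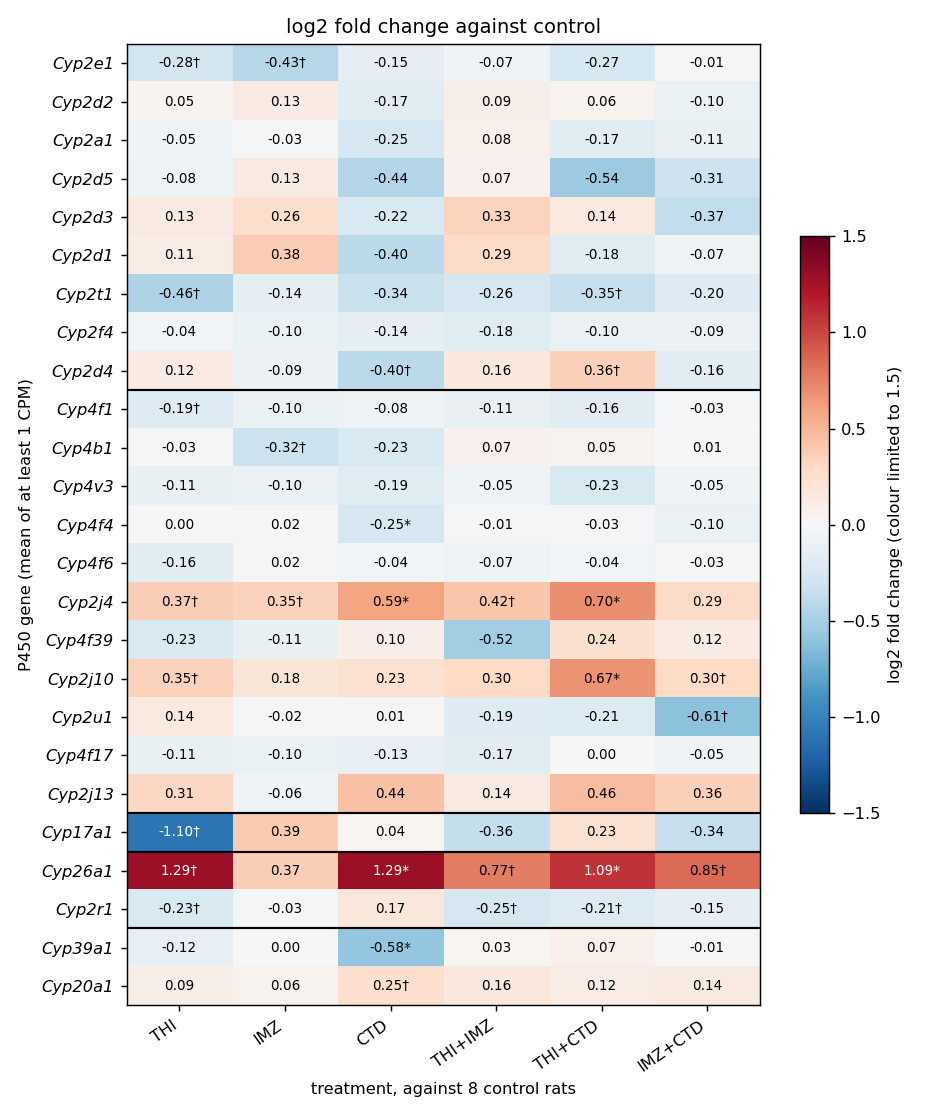
log2 fold change against the 8 control rats (colour and printed value) for the 25 members with a mean of at least 1 CPM, in rows by member group (from the top: drug and pollutant oxidation, fatty acid and eicosanoid oxidation, steroid hormone synthesis, vitamin D and retinoic acid, sterol side chain and others), with the treatments in columns. A star marks an adjusted p under 0.05 and a dagger an unadjusted p under 0.05 only. Cyp26a1 was the member with the darkest row, and most other fields lay within 0.5 of zero.

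Among the enzymes of retinoic acid and vitamin D, Cyp26a1 was called. It encodes the main enzyme that breaks down all-trans retinoic acid, and its transcription is itself raised by retinoic acid through retinoic acid receptors. Because of that known feedback its promoter is shown, as the 250 bases before the start site in the RefSeq gene table (build GRCr8, chr1:244883572-244883821, plus strand), 5′ to 3′.
Cyp26a1: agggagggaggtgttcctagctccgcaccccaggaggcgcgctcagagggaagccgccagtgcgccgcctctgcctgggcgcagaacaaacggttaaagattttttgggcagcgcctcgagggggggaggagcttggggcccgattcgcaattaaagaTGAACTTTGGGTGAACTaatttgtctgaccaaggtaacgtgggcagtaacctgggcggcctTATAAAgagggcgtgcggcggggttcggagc
The capitals mark a direct repeat of AGTTCA with 5 bases between (AGTTCA, any 5 bases, AGTTCA, read on the minus strand and therefore printed as its reverse complement), 92 to 76 bases before the start, and the box TATAAA on the plus strand, 31 to 26 bases before it. The retinoic acid receptors bind repeats of this form. Both copies of AGTTCA within the repeat are part of it and not separate matches. On either strand, the repeat was found in 3 of 33469 promoter windows of this length (0.00896%) and TATAAA in 12.9%. Of the 42 members, 34 had a window in the table, and among these windows the repeat was present in that of Cyp26a1. The corresponding repeat of AGGTCA with 5 bases between occurred in 3 windows of the table and in none of the members. Only these exact letters were searched, so repeats that mix both copies or differ in a letter are not in these shares. The shares therefore do not give how common binding sites of the receptors are. These matches describe the letters only.

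In the controls, Cyp26a1 ranged from 6.88 to 15.0 CPM with a median of 8.72. In the CTD rats it was 12.98, 33.5 and 23.3 CPM, in THI + CTD 15.9, 21.3, 33.7 and 9.77 CPM, and in THI 17.6, 37.6, 26.2 and 11.1 CPM. The mean was higher than in the controls in these 3 groups, and each group overlapped with the controls by its lowest rat. In IMZ + CTD the levels were 19.5, 15.4, 17.8 and 15.9 CPM, and all 4 rats lay above the highest control (1.61% of all genes were higher without overlap). In THI + IMZ they were 21.4, 20.2, 16.02 and 7.24 CPM, with 3 of 4 rats above all controls, and in IMZ 9.88, 4.88, 20.4 and 13.9 CPM, with 1 of 4 above.

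The increase was called after CTD (log2 fold change 1.29, SE 0.35, edgeR adjusted p = 0.0111) and after THI + CTD (1.09, SE 0.32, adjusted p = 0.0442). After THI the change was of like size and missed the threshold (1.29, SE 0.32, edgeR adjusted p = 0.0563), while DESeq2's Wald test (adjusted p = 0.0325) and an edgeR fit of THI and control rats alone (adjusted p = 0.0274) called it. After THI + IMZ (0.77, SE 0.32) and IMZ + CTD (0.85, SE 0.32) the edgeR adjusted p was 0.35 and 0.225, and the fit of IMZ + CTD and control rats alone gave 0.0125. The call after CTD rested on replicate 2, without which the log2 fold change was 0.93 (edgeR adjusted p = 0.157). The call after THI + CTD was lost in 9 of the 12 fits that left out a control or a THI + CTD rat, where the log2 fold change stayed at 1.03 to 1.19 in 8 of them and was 0.72 without THI + CTD replicate 3 (edgeR adjusted p = 0.327).

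**Figure D2:**
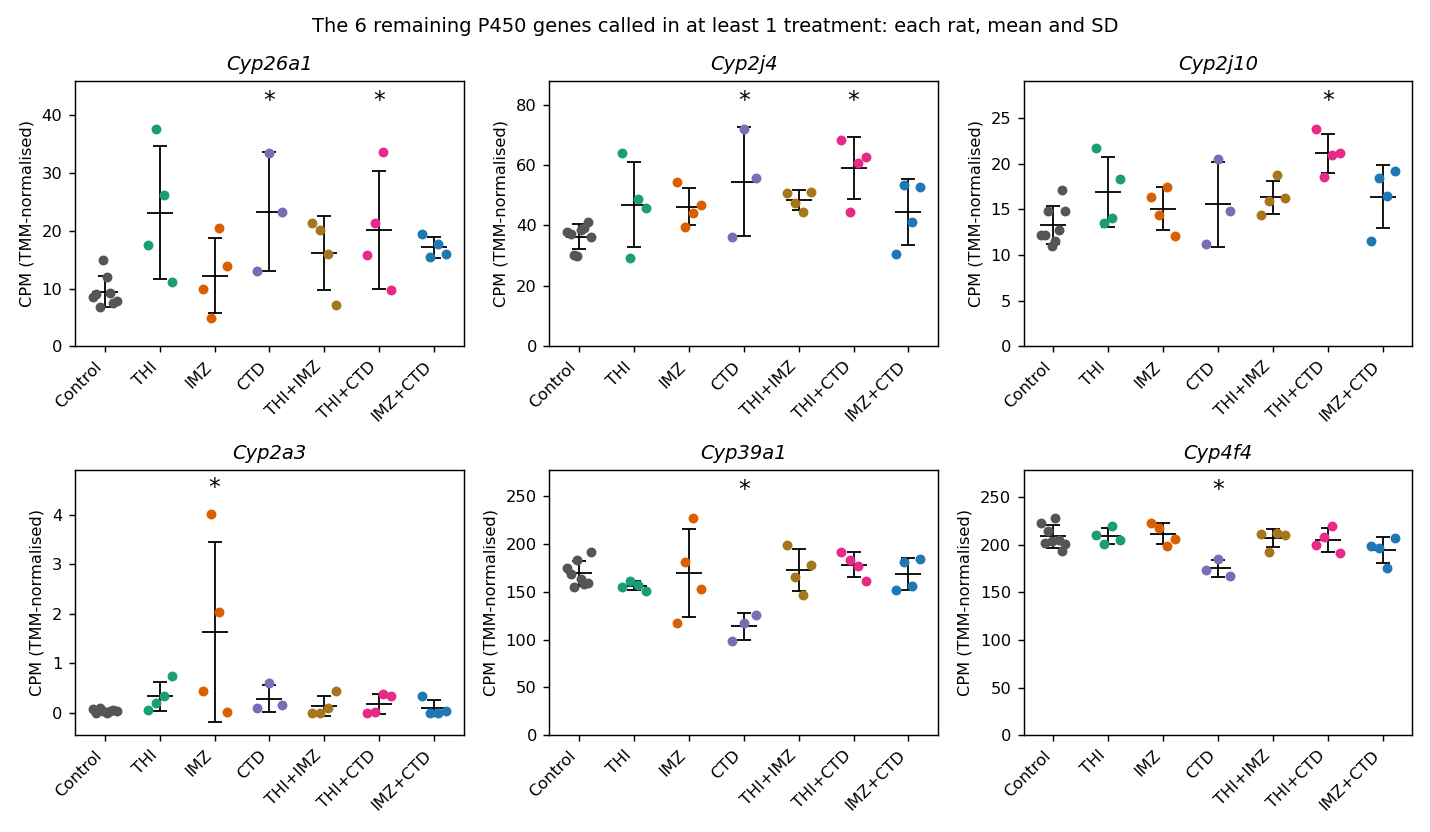
CPM (TMM-normalised) of the 6 called members in each rat, by group. Points are rats, the horizontal bar is the group mean and the whiskers are 1 SD; a star marks an edgeR adjusted p under 0.05 against control. Cyp39a1 and Cyp4f4 lay below all controls in all 3 CTD rats, as did 5.48% of all genes, whereas Cyp26a1 had a wide spread among rats of most treated groups.

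The other retinoic acid hydroxylases and the vitamin D enzymes were not called. Cyp26b1, which is described here although it was chosen after its values were seen, had 0.447 to 2.99 CPM in the controls with a median of 1.14. It was 0.350, 0.619, 0.772 and 0.476 CPM after THI and 0.289, 0.156, 1.53 and 0.329 CPM after THI + CTD, so both groups overlapped with the controls. Its log2 fold change was -1.37 (SE 0.54, edgeR adjusted p = 0.438) after THI and -1.30 (SE 0.54, adjusted p = 0.189) after THI + CTD. Without THI + CTD replicate 3, the rat at 1.53 CPM, the latter was -2.48 (edgeR adjusted p = 0.0222). Cyp2r1, the vitamin D 25-hydroxylase of the liver, was 12.8 ± 1.53 CPM (SD, n = 8) in the controls. Its mean was 10.9 ± 1.95 CPM after THI, 10.8 ± 0.973 CPM after THI + IMZ and 11.1 ± 0.718 CPM after THI + CTD (SD, n = 4 each), with edgeR adjusted p of 0.501, 0.312 and 0.265. Cyp27b1, the renal 1-alpha-hydroxylase, and Cyp26c1 had at most 29 and 21 counts in a library.

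In the fatty acid and eicosanoid group of 15 members, Cyp2j4 and Cyp2j10 were up-regulated. CYP2J enzymes epoxidise arachidonic and other polyunsaturated fatty acids. In the RefSeq gene table (GRCr8) both genes lie on chromosome 5 beside Cyp2j3 and Cyp2j16. The paper's counts rest on uniquely mapped reads, so reads that fit these paralogs equally well were left out. Whether reads of either gene entered the count of the other was not tested.

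Cyp2j4 ranged from 29.97 to 41.1 CPM in the controls with a median of 37.6. In THI + CTD it was 68.2, 44.4, 60.5 and 62.5 CPM, and all 4 rats lay above all controls. In CTD it was 36.1, 72.0 and 55.6 CPM, with 1 of 3 rats inside the control range. In THI + IMZ it was 50.8, 47.4, 44.4 and 51.2 CPM, and again no rat overlapped with the controls. The log2 fold change was 0.70 (SE 0.16, edgeR adjusted p = 0.00811) after THI + CTD and 0.59 (SE 0.18, adjusted p = 0.0238) after CTD. After THI + IMZ it was 0.42 (SE 0.16, edgeR adjusted p = 0.283), and the fit of THI + IMZ and control rats alone gave an adjusted p of 0.0378. After THI and IMZ it was 0.37 (SE 0.16) and 0.35 (SE 0.16), with edgeR adjusted p of 0.501 and 0.594. The call after CTD was lost without CTD replicate 2 (log2 fold change 0.34, adjusted p = 0.342) or without CTD replicate 3 (0.57, adjusted p = 0.0692). That after THI + CTD held without any single control or THI + CTD rat, with an adjusted p of at most 0.0423.

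Cyp2j10 ranged from 11.03 to 17.1 CPM in the controls with a median of 12.5. In THI + CTD it was 23.8, 18.6, 20.97 and 21.2 CPM, and all 4 rats lay above all controls. The shares of all genes that were higher without overlap were 2.14% for THI + CTD and 0.794% for THI + IMZ. The log2 fold change after THI + CTD was 0.67 (SE 0.14, edgeR adjusted p = 0.00525), and the adjusted p stayed at or below 0.0276 without any single control or THI + CTD rat. After CTD Cyp2j10 was 11.2, 20.5 and 14.9 CPM, from within to above the control range, and was not called. After THI (0.35, SE 0.15) and IMZ + CTD (0.30, SE 0.15) the edgeR adjusted p was 0.484 and 0.385. Cyp2j13, the other CYP2J member, was called in no treatment.

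Cyp2j4 and Cyp2j10 were correlated among rats of the same group by Pearson's r, while Spearman's rho did not pass after adjustment. On log2 CPM with each group's mean subtracted, Pearson's r over 31 rats was 0.694 (permutation p = 0.00126, adjusted over 15 pairs of called members 0.0189) and Spearman's rho was 0.548 (permutation p = 0.00988, adjusted 0.148). Rats were permuted within groups. Without the 2 rats farthest from the median of Cyp2j4 (THI replicate 2 and CTD replicate 1), r was 0.622. For the remaining 14 pairs of called members the adjusted permutation p was at least 0.83 for r and 0.778 for rho.

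**Figure D3:**
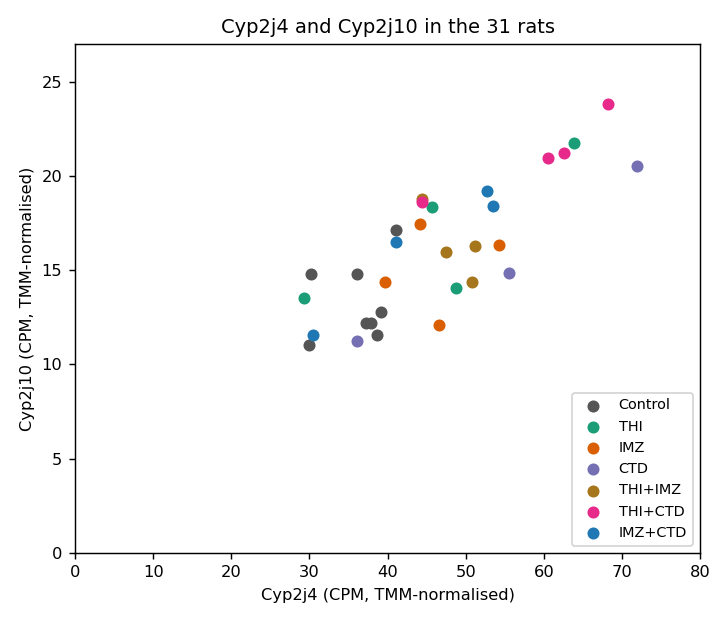
Cyp2j10 against Cyp2j4 in the 31 rats (CPM, TMM-normalised, linear axes), with 1 point per rat coloured by group. Rats with a higher level of Cyp2j4 tended to have a higher level of Cyp2j10, and 3 THI + CTD rats, CTD replicate 2 and THI replicate 1 lay at the upper right, above 60 CPM for Cyp2j4 and above 20 CPM for Cyp2j10. Group means are not subtracted here, so the pattern includes differences between groups, and both genes were called after THI + CTD.

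The CYP4F enzymes hydroxylate leukotrienes and long-chain fatty acids at the end of the chain. Cyp4f4 ranged from 194 to 229 CPM in the controls with a median of 204, and was 173, 185 and 168 CPM in the CTD rats. All 3 CTD rats lay below all controls, as did 5.48% of all genes. The log2 fold change was -0.25 (SE 0.07, edgeR adjusted p = 0.0113), or 0.838 of the control level. The call was lost without CTD replicate 1 (log2 fold change -0.25, adjusted p = 0.0578) or CTD replicate 3 (-0.22, adjusted p = 0.0656). In IMZ + CTD, with less CTD in the dose, Cyp4f4 was 199, 197, 175 and 207 CPM and overlapped with the controls, as it did in the remaining groups.

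Cyp4f1 and Cyp4b1, which have the highest mean CPM of this group (not scaled to length), were not called. Cyp4f1 was 556 ± 42.0 CPM (SD, n = 8) in the controls and 486 ± 31.7 CPM (SD, n = 4) after THI (log2 fold change -0.19, SE 0.08, edgeR adjusted p = 0.482). Cyp4b1, an enzyme with both fatty acids and foreign compounds as substrates, ranged from 408 to 578 CPM in the controls with a median of 450. It was 366, 371, 403 and 337 CPM after IMZ, and all 4 rats lay below all controls (0.553% of all genes). This change was -0.32 on the log2 scale (SE 0.12, edgeR adjusted p = 0.358). After THI the CYP4F member Cyp4f6, chosen after its values were seen, was 71.6 to 74.1 CPM against 74.4 to 88.0 CPM in the controls, so the groups did not overlap (0.688% of all genes were lower in this way), and its edgeR adjusted p was 0.574. Cyp2u1, a fatty acid hydroxylase, was 4.02 ± 0.750 CPM (SD, n = 4) after IMZ + CTD and 6.14 ± 1.77 CPM (SD, n = 8) in the controls (log2 fold change -0.61, SE 0.30, edgeR adjusted p = 0.381), and was likewise chosen after its values were seen.

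Among the 14 members that oxidise drugs and pollutants, Cyp2a3 was called, after IMZ. Rat CYP2A3 is known as a P450 of the lung and nasal mucosa that activates nitrosamines. Its counts were very low in the controls, at 0 to 7 counts or 0 to 0.0936 CPM, with 2 of 8 rats at 0. In the IMZ rats it was 0.444, 4.02, 2.04 and 0.0216 CPM, from 23, 164, 83 and 1 counts. Thus 3 of 4 IMZ rats lay above all controls and replicate 4 lay within their range. The group means were 1.63 CPM and 0.0399 CPM, and the fitted log2 fold change was 5.22 (SE 0.95, edgeR adjusted p = 0.00434), a value that is imprecise at such counts. It was 4.25 (adjusted p = 0.0715) without IMZ replicate 2.

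Cyp2b1, the classical CAR target and no member, was looked at after these values were seen. The same 4 IMZ rats had 37.7, 472, 110 and 13.5 CPM of it, so they stood in the order of replicates 2, 3, 1 and 4 for both genes. In the THI rats Cyp2b1 was 325, 221, 331 and 180 CPM, which is not the order of Cyp2a3. In the CTD rats it was 13.99, 179 and 20.9 CPM, in the order of Cyp2a3, whereas in THI + IMZ it was 373, 116, 161 and 41.1 CPM, with the lowest level in the rat that had the most Cyp2a3. In THI + CTD Cyp2b1 was 77.3, 403, 200 and 217 CPM and Cyp2a3 was 0, 0.0223, 0.383 and 0.329 CPM, in another order. In IMZ + CTD Cyp2b1 was 55.6, 8.12, 6.23 and 4.62 CPM, and replicate 1 had the most of both genes. Whether the orders of both genes are related was not tested. In the controls Cyp2b1 was 0.0302 to 0.998 CPM. In the RefSeq gene table, Cyp2a3 lies on chromosome 1 in the same cluster as the Cyp2b genes, Cyp2a1 and Cyp2a2, and whether reads of paralogs entered its count was not tested. After THI Cyp2a3 was 0.0539, 0.206, 0.331 and 0.738 CPM (log2 fold change 2.94, SE 1.02, edgeR adjusted p = 0.316), with 3 of 4 rats above all controls. After CTD it was 0.104, 0.594 and 0.154 CPM, all above the controls (5.33% of all genes were higher without overlap), with a log2 fold change of 2.73 (SE 1.13, edgeR adjusted p = 0.116, and 0.0358 in the fit of CTD and control rats alone). In the mixtures it was 0 to 0.444 CPM, and each mixture had at least 1 rat at 0.

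Cyp2e1 and Cyp2d2 were the members with the most counts of this group. Cyp2e1 oxidises ethanol and other small solvents. It ranged from 3456 to 5841 CPM in the controls with a median of 3669, and was 2695, 2935, 3194 and 3158 CPM after IMZ. All 4 IMZ rats lay below all controls (0.553% of all genes), and the log2 fold change was -0.43 (SE 0.13, edgeR adjusted p = 0.256). After THI it was -0.28 (SE 0.13, adjusted p = 0.567). Cyp2d2, a relative of the human debrisoquine hydroxylase CYP2D6, was 1868 ± 121 CPM (SD, n = 8) in the controls and had group means of 1656 to 2040 CPM in the treatments, with no unadjusted p under 0.05.

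Cyp2d4 and Cyp2t1 are given although they were chosen after their values were seen. Cyp2d4, the CYP2D form also known from rat brain, ranged from 24.8 to 38.4 CPM in the controls with a median of 31.2. It was 20.2, 29.8 and 20.4 CPM after CTD and 38.3, 42.2, 44.5 and 34.3 CPM after THI + CTD, and both groups overlapped with the controls. The log2 fold change was -0.40 (SE 0.14, edgeR adjusted p = 0.0625) after CTD and 0.36 (SE 0.12, adjusted p = 0.0993) after THI + CTD. DESeq2's Wald test called the former (adjusted p = 0.0379), and without CTD replicate 2 it was -0.61 (edgeR adjusted p = 0.0123). Cyp2t1 ranged from 67.2 to 79.2 CPM in the controls and was 53.9, 35.7, 61.5 and 64.1 CPM after THI. It lay below all controls in 4 of 4 THI rats, as did 0.688% of all genes. Its log2 fold change was -0.46 (SE 0.16, edgeR adjusted p = 0.291). After THI + CTD it was -0.35 (SE 0.16, adjusted p = 0.226), and fits of only the groups compared gave an edgeR adjusted p of 0.0495 for THI + CTD and 0.0331 for CTD, where it was 0.221 in the fit of all groups. The members Cyp2a1, Cyp2d1, Cyp2d3, Cyp2d5 and Cyp2f4 had no unadjusted p under 0.05 in any treatment. The symbol Cyp2s1 stood on 2 rows, with means of 0.269 and 0.201 CPM, and neither was called.

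Of the 5 members that act in steroid hormone synthesis, none was called in any treatment, and Cyp17a1 had the most counts. It encodes the 17-alpha-hydroxylase and 17,20-lyase, which is mainly an enzyme of the gonads and adrenal. In the controls it ranged from 1.51 to 7.71 CPM with a median of 4.21. After THI it was 2.59, 1.60, 2.29 and 1.69 CPM, all within the lower part of the control range. Its log2 fold change was -1.099 (SE 0.36, edgeR adjusted p = 0.274). In the remaining groups the means were 3.38 to 5.71 CPM. Cyp21a1, the adrenal 21-hydroxylase, was 0.0642 to 0.655 CPM over all rats. Over the 5 adrenal cortex markers tested, which include Cyp21a1 and Cyp11a1, the sum was 0.950 to 4.33 CPM in the controls and 0.362 to 2.70 CPM in the treated rats. Star reached 2.85 CPM and Cyp11a1, which starts steroid synthesis, 0.702 CPM, while Mc2r and Nr5a1 were at most 0.0963 CPM in any rat.

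Cyp39a1, the microsomal 24-hydroxycholesterol 7-alpha-hydroxylase of the liver, was down-regulated after CTD. In the controls it ranged from 155 to 192 CPM with a median of 166. In the CTD rats it was 98.0, 117 and 126 CPM, and all 3 lay below all controls (5.48% of all genes were lower in this way). Its log2 fold change was -0.58 (SE 0.12, edgeR adjusted p = 0.00179), or 0.671 of the control level, and the adjusted p stayed at or below 0.0365 without any single control or CTD rat. The levels were 192, 184, 177 and 161 CPM in THI + CTD and 152, 181, 156 and 185 CPM in IMZ + CTD, and both groups overlapped with the controls. In IMZ the rats spread from 118 to 228 CPM, on both sides of the control range. Cyp20a1, whose substrate is not known, was 18.96, 18.4 and 18.9 CPM after CTD and 13.4 to 17.3 CPM in the controls, without overlap (5.33% of all genes were higher in this way). Its log2 fold change was 0.25 (SE 0.09, edgeR adjusted p = 0.0756), and DESeq2's Wald test (adjusted p = 0.0467) and the stricter count filter of edgeR (adjusted p = 0.0444) called it. Cyp46a1, the cholesterol 24-hydroxylase of neurons, had at most 20 counts in a library.

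Both neonicotinoids, THI and CTD, were given at different doses (108 and 288 mg/kg bw/day), so their values are set side by side without a comparison. The log2 fold change after THI and after CTD was 1.29 and 1.29 for Cyp26a1 and 0.37 and 0.59 for Cyp2j4. Mean levels after THI and after CTD were 156 and 114 CPM for Cyp39a1 and 209 and 175 CPM for Cyp4f4.

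Each mixture's log2 fold change was compared with a dose-weighted sum of the single compounds (weights 0.5 for THI and IMZ and 0.47 for CTD). The paper calls such a sum theoretical. It takes the log2 fold change as proportional to dose. Each compound alone was sequenced at a single dose, so this was not tested. edgeR called no member for THI + IMZ, THI + CTD or IMZ + CTD, for which 0.0151%, 0.286% and 1.16% of all genes were called. Before adjustment, 3, 5 and 5 members (7.14%, 11.9% and 11.9%) had a p under 0.05, against 6.46%, 9.66% and 14.3% of all genes. DESeq2's Wald test called 0, 2 and 0 members, the 2 being Cyp2d4 and Cyp39a1. For Cyp26a1 the mixture and the sum were 0.77 and 0.83 in THI + IMZ, 1.09 and 1.25 in THI + CTD, and 0.85 and 0.79 in IMZ + CTD, and the differences were smaller than their SE of 0.33 in all 3. For Cyp39a1 in THI + CTD the mixture stood at 0.07 and the sum at -0.33, a difference of 0.40 (SE 0.11, edgeR adjusted p = 0.13, DESeq2 adjusted p = 0.0417). For Cyp2d4 in THI + CTD the values were 0.36 and -0.13, a difference of 0.49 (SE 0.13, edgeR adjusted p = 0.102, DESeq2 adjusted p = 0.0317). For Cyp2j10 in THI + CTD they were 0.67 and 0.28, a difference of 0.39 (SE 0.15, edgeR adjusted p = 0.369).

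**Figure D4:**
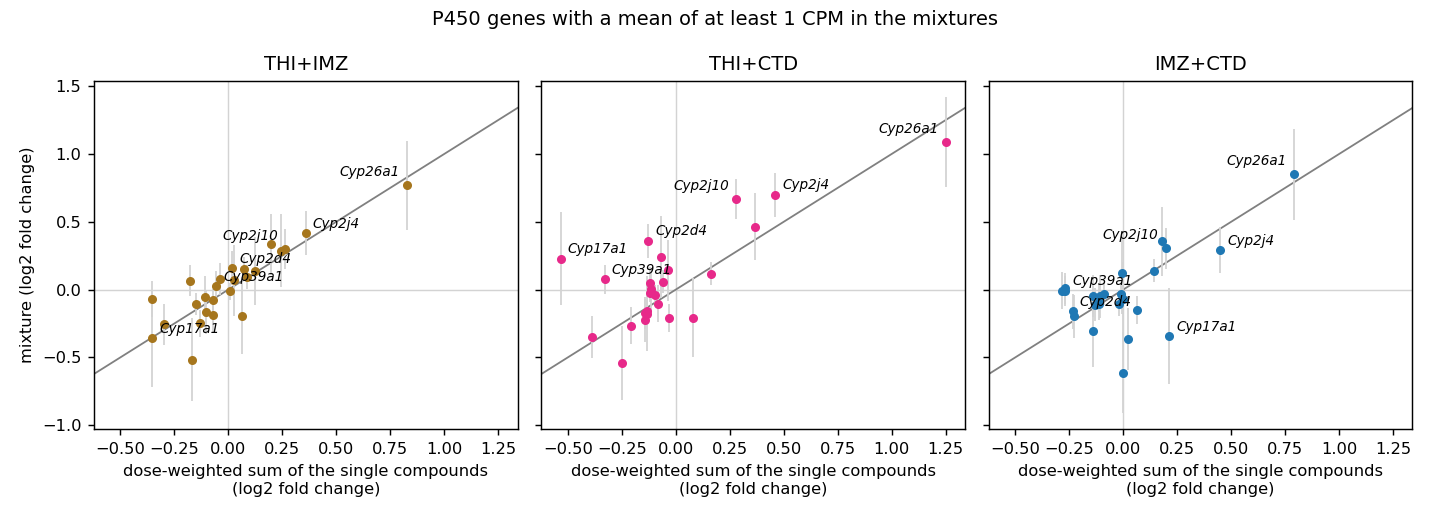
Observed log2 fold change of each mixture (vertical axis) against the dose-weighted sum of its single compounds (horizontal axis) for the 25 members with a mean of at least 1 CPM. The bars are the SE of the difference between both, and the diagonal is where both are equal. Cyp26a1 lay near the diagonal in the 3 mixtures, and Cyp2d4, Cyp39a1 and Cyp2j10 lay above it in THI + CTD.

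The genes that supply, surround or control these enzymes are given from lists, with counts of calls. In the retinoid list of 14 genes, Aldh1a1, which makes retinoic acid from retinal, was up-regulated in all 6 treatments. It was 46.8 to 172 CPM in the controls, and the group means were 250 to 496 CPM in the treated rats, with log2 fold changes from 1.49 (SE 0.24, edgeR adjusted p = 0.000822) after IMZ + CTD to 2.47 (SE 0.24, adjusted p = 5.86e-08) after THI + CTD. Rbp4, the retinol carrier of the blood, fell after CTD.

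In the oxylipin list of 10 genes, the microsomal epoxide hydrolase Ephx1 was up-regulated after THI, CTD, THI + IMZ and THI + CTD, with log2 fold changes of 1.24 to 1.60, and the soluble epoxide hydrolase Ephx2 was down-regulated after CTD. In the list of 8 genes for electron supply, the oxidoreductase Por rose after THI + IMZ (0.82, SE 0.20, edgeR adjusted p = 0.0338) and THI + CTD (0.84, SE 0.20, adjusted p = 0.0122). Pgrmc1, a haem-binding partner of P450 enzymes, rose after CTD, THI + IMZ and THI + CTD by 0.42 to 0.52 on the log2 scale, and cytochrome b5 (Cyb5a) after CTD and THI + IMZ by 0.36 to 0.37. In the haem list, 2 of 10 genes tested were called, Alad and Urod, both down-regulated after CTD.

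Of 15 receptors and transcription factors that act on P450 genes, CAR (Nr1i3) was up-regulated after CTD, THI + IMZ and THI + CTD, with log2 fold changes of 1.102 to 1.37. After CTD Arnt and Rxra were down-regulated, after THI + IMZ Ppara was up-regulated, and after IMZ + CTD PXR (Nr1i2) was down-regulated. In the vitamin D list of 6 genes, the vitamin D receptor Vdr was up-regulated after THI + CTD and no other call was made. In the steroid list, 2 of 9 genes tested were called. Hsd11b1, which regenerates active glucocorticoid, rose after CTD, THI + CTD and IMZ + CTD by 1.68 to 2.18 on the log2 scale, and the bile acid and steroid reductase Akr1d1 rose after CTD and THI + CTD by 0.49 to 0.54. The list of 10 pericentral genes, whose zone also holds Cyp2e1, had 1 call after THI and 1 after THI + CTD, each time Oat, which was down-regulated with log2 fold changes of -0.95 and -0.94. Of 10 periportal genes, Ass1, Asl, Hal, Cdh1 and Sds were down-regulated after CTD, and Hal and Cdh1 after THI + CTD.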

How the data were processed

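Livers of 31 rats in 7 groups were analysed, with groups and replicate numbers taken from the sample labels. Per the methods and labels, total RNA was sequenced with a stranded kit. The authors checked reads with FastQC 0.11.5, used STAR 2.5.2b to map reads to Rnor_5.0 and to obtain counts per gene, and deposited the counts without normalization. The annotation release and strand setting are not given in the sources used here. Their second table, normalized with DESeq2 1.15.1, was not used.

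Genes with a summed count of at least 2 were tested with edgeR 4.0.16 (R 4.3.3), using TMM, the quasi-likelihood test and 1 mean per group. The SE was taken from the F statistic (absolute log2 fold change over the root of F). p-values were adjusted over all 19904 genes by Benjamini-Hochberg. Log2 CPM used a prior count of 2, and correlations 100000 permutations. The test was run on simulated counts, with log2 fold changes of 1 or 2 in either direction planted in genes over 1 CPM. Smaller changes and members under 1 CPM were not covered. Alternatives were DESeq2 1.42.0 (size factors, Wald test), filterByExpr, no filter, fits of only the groups compared, a replicate block, thinning to the smallest library, exact dose ratios, and leaving out each rat.

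The genes named are the called members, the 2 members of each member group with the highest mean CPM, and, of the listed pathway genes, those called in at least 2 treatments with values. Members and lists were chosen with earlier results of these data known. The labels give no batch. Each rat was 1 library, and its depth limits the members under 1 CPM. No Rnor_5.0 annotation was used. The chromosomes and the promoter position given are those of RefSeq on GRCr8, not of the build the counts were made on. Results for some single genes of the pathway lists are left out.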

Additional observations from a re-analysis of the deposited data

Results flagged for a closer look

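The highest and lowest rat of each group of 4 to 8 rats was compared with the rest of its group for the 14 named members, in 84 pairs of member and group. In 8 pairs (9.52%) a rat stood apart by Dixon's 95% limit, and chance alone flags about 1 in 20 groups. Control replicate 6 had 5841 CPM of Cyp2e1, against 3456 to 4351 CPM in the other control rats. Control replicate 3 had 0.655 CPM of Cyp21a1, against 0.0814 to 0.348 CPM. In THI + IMZ, replicate 2 had 193 CPM of Cyp4f4 (others 210 to 213 CPM) and replicate 4 had 384 CPM of Cyp4b1 (others 506 to 526.3 CPM). In IMZ, replicate 3 had 20.2 CPM of Cyp20a1 (others 14.7 to 15.4 CPM). In IMZ + CTD, replicate 1 had 0.338 CPM of Cyp2a3 (others 0 to 0.0321 CPM), replicate 2 had 12.6 CPM of Cyp2r1 (others 11.2 to 11.3 CPM) and replicate 4 had 1567 CPM of Cyp2d2 (others 1782 to 1815 CPM). The 3 rats of CTD were too few for this comparison. None of the flagged values belongs to a pair of member and treatment that was called.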

How the results depend on the processing

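Of the counts of called members, those for CTD (4) and THI + CTD (3) stayed within 1.5 times under the alternatives other than leaving out a rat. The count for THI was 1 with DESeq2's Wald test and in the fit of only the groups compared, against 0. In the latter fit those for THI + IMZ and IMZ + CTD were also 1. The number off the dose-weighted sum in THI + CTD was 2 with the Wald test and 1 in that fit, against 0. Over 31 fits that each left out a rat, the counts were 0 to 1 for THI, 0 to 1 for IMZ (0 without IMZ replicate 2), 2 to 5 for CTD (2 without CTD replicate 3), 0 for THI + IMZ, 2 to 3 for THI + CTD, 0 for IMZ + CTD, and 0, 0 to 1 and 0 for the sums in THI + IMZ, THI + CTD and IMZ + CTD. Leaving out a rat of another group, THI + IMZ replicate 3 or IMZ + CTD replicate 2, 3 or 4, also gave 2 for THI + CTD. No call changed direction. The cause was not tested.

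Rats of different groups share only a number. Over 78 pairs with the same replicate number, the correlation of deviations from the group means was -0.285 to 0.399. The median was 0.0316, and 16 pairs were over 0.1. For 4 of 31 rats, the mean correlation with rats of other groups was highest for their own number. Control replicates 5 to 8 could not be among these, because no other group has their numbers. With the number as a replicate block, the count for IMZ was 0, Cyp2a3 after IMZ had an edgeR adjusted p of 0.341, Cyp26a1 after CTD 0.156 and after THI + CTD 0.331, Cyp2d4 after THI + CTD passed the threshold (adjusted p = 0.0418), and the counts for the remaining comparisons stayed within 1.5 times.

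Precision is limited by 3 rats in CTD and by the depth for the 17 members under 1 CPM. The CTD rats are also those that remained in a group with loss of animals in moribund condition.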
